A study of Mus musculus with 8 samples.

Results

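Sphingosine 1-phosphate receptor genes and the oxysterol receptor gene Gpr183 were followed across 4 groups of mouse splenic B cells. The set held S1pr1, S1pr2, S1pr3, S1pr4 and Gpr183, 5 of the 21515 genes that the arrays measured through a probe set carrying 1 gene symbol. They were picked out by gene symbol, with earlier results of these data known, and each was read by 1 probe set. S1pr5, the remaining receptor gene of the S1P family, is given beside them for comparison.

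Sphingosine 1-phosphate (S1P) is a lipid that is abundant in blood and lymph and scarce inside lymphoid tissue, and lymphocytes follow this gradient when they leave a lymphoid organ. S1PR1 couples to inhibitory G proteins and drives egress, S1PR2 signals through Gα12 and Gα13 and holds germinal centre B cells in place, S1PR3 is abundant on marginal zone B cells, and S1PR4 is a receptor found mainly on blood cells. GPR183, also called EBI2, binds the oxysterol 7α,25-dihydroxycholesterol and guides activated B cells to the outer follicle and to interfollicular zones.

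The study compared B cells that express LMP1, the latent membrane protein of Epstein-Barr virus that signals in the manner of a constantly active CD40, with B cells stimulated through CD40 itself. All samples were prepared as spleen B cells by depletion of CD43-bearing cells, and markers of other cells are described further on. RNA was read on Affymetrix whole-transcript arrays, 2 per group and 8 in all. LMP1 cells came from LMP1flSTOP/YFPflSTOP females of a (C57BL6XBALBc) F1 cross, were given TAT-Cre, a cell-permeable recombinase that removes the STOP cassettes, and were sorted 2 days later for the YFP reporter. YFP control cells came from YFPflSTOP/+ females of the same cross and had the same TAT-Cre, 2 days and sort. CD40-activated cells came from B6/J males and were kept for 2 days with anti-CD40. Naive control cells came from B6/J males as well and went straight to RNA, without culture. The labels give no age and call the arrays of a group biological replicates, and the arrays of the first 2 groups were re-analysed from an earlier series.

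Levels are log2 values, so that a difference of 1 is a 2-fold difference, and a gene is called when its limma p-value, adjusted by Benjamini-Hochberg over all 21515 genes, is below 0.05. The p-values measure the spread between these arrays, and 2 arrays per group limit the precision. The median over all 25349 probe sets of an array lay between 5.52 and 5.68. Replicates correlated at 0.996 for LMP1, 0.975 for YFP control, 0.993 for CD40-activated and 0.981 for naive control, and 14, 950, 34 and 364 genes differed by more than 1 between the arrays of those groups in that order. The YFP control and naive control arrays were therefore less alike than those of the other groups. The mean level of 6 B cell markers (Cd79a, Cd79b, Ms4a1, Pax5, Ebf1 and Cd22) was between 10.8 and 11.8 on every array, but it was not the same in all groups. It was 10.77 and 10.80 on the LMP1 arrays, against 11.81 and 11.61 on the YFP control arrays, and 4 of the 6 were called lower there (Cd22, Cd79a, Ebf1 and Cd79b, with log2 changes of -2.44, -1.17, -0.85 and -0.68, the last not called without either LMP1 array). It was 11.41 and 11.36 on the CD40-activated arrays, against 11.36 and 11.38 on the naive control arrays, with 1 marker called higher and 1 lower. The part of this shift in the receptor changes of LMP1 cells was not tested. Over all genes, 8.31% were called lower in LMP1 than in YFP control cells. The shares for CD40-activated against naive control cells were 6.65% lower and 11% higher. Levels of different genes were not set against each other, because probe sets differ in brightness.

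S1pr1, the egress receptor, was lowest in the LMP1 cells. It read 5.84 and 5.84 on the LMP1 arrays, against 10.55 and 9.71 on the YFP control arrays. It read 8.86 and 9.05 on the CD40-activated arrays, against 10.32 and 10.10 on the naive control arrays. Both LMP1 arrays lay below all other arrays, both CD40-activated arrays lay between, and the 2 kinds of control overlapped.

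In LMP1 cells S1pr1 fell by 4.29 ± 0.25 relative to YFP control (SE, 95% interval -4.85 to -3.73, adjusted p = 8.37e-06), which is 19.6-fold and the eighth largest decrease among all genes tested. In CD40-activated cells S1pr1 was 2.39-fold lower than in naive control cells (adjusted p = 0.00753). The LMP1 change minus the CD40 change was -3.04 ± 0.36 (adjusted p = 9.02e-04). Set directly against the CD40-activated cells, the LMP1 cells were 8.66-fold lower (adjusted p = 5.95e-05), a comparison in which stimulus, mouse cross, sex, sorting and array series all differ and cannot be told apart. The CD40 call for S1pr1 was lost without CD40-activated replicate 1 (adjusted p = 0.0767) and without naive control replicate 1 (adjusted p = 0.0527), while its change stayed between -1.47 and -1.15 over 16 alternatives. In bulk RNA, fewer cells of a type that carries a transcript and less transcript per cell cannot be told apart.

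The mean level of S1pr1 was 5.84 ± 0.00 in LMP1, 8.96 ± 0.13 in CD40-activated, 10.13 ± 0.59 in YFP control and 10.21 ± 0.16 in naive control cells (SD, n = 2 each), in rising order. The 2 highest did not pass the test, YFP control minus naive control being -0.08 with a 95% interval from -0.64 to 0.48. CD40-activated cells were below YFP control cells (log2 change -1.18, adjusted p = 0.0130). That call was lost without either CD40-activated array (adjusted p = 0.111 and 0.0767) and with only those 2 groups in the model (adjusted p = 0.0598).

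**Figure D1:**
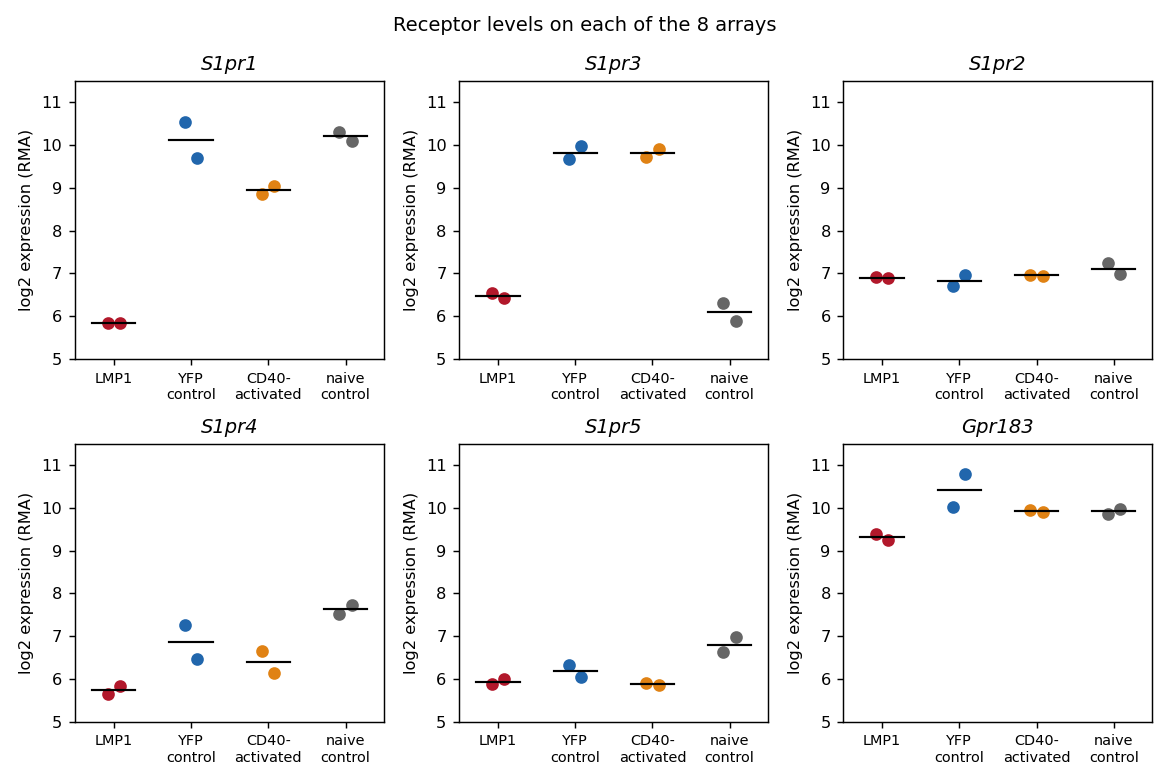
Log2 level (y axis) of the 5 receptor genes and S1pr5 on each of the 8 arrays, in a panel per gene, with a point per array and a bar at the mean of each group. S1pr1 is at 5.84 on both LMP1 arrays, S1pr3 is between 9.67 and 9.98 on the YFP control and CD40-activated arrays only, and the S1pr2 points lie between 6.70 and 7.24 in all groups.

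S1pr3, the receptor typical of marginal zone B cells, changed in opposite directions in the 2 comparisons with unlike controls. CD40-activated and YFP control cells did not differ in it at the threshold (log2 change -0.01). It read 6.54 and 6.42 on the LMP1 arrays, against 9.67 and 9.98 on the YFP control arrays. It read 9.73 and 9.90 on the CD40-activated arrays, against 6.31 and 5.90 on the naive control arrays. The LMP1 and naive control arrays formed the low end and the YFP control and CD40-activated arrays the high end, from 6.54 down and from 9.67 up, with no overlap.

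S1pr3 fell in LMP1 cells relative to YFP control (log2 change -3.35 ± 0.20, 10.2-fold, adjusted p = 8.37e-06). It rose by 3.71 ± 0.20 in CD40-activated cells relative to naive control (13.1-fold, adjusted p = 1.65e-05). The difference between the 2 changes was -7.06 ± 0.28 (95% interval -7.68 to -6.43, adjusted p = 6.83e-06), the most negative of all 21515 genes. All of these calls were kept under each of the 16 alternatives run for a change and the 15 run for the difference.

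The mean level of S1pr3 was 6.48 ± 0.08 in LMP1, 9.83 ± 0.22 in YFP control, 9.82 ± 0.12 in CD40-activated and 6.11 ± 0.29 in naive control cells (SD, n = 2 each), so that the order from the top was YFP control, CD40-activated, LMP1 and naive control. CD40-activated minus YFP control was -0.01 with a 95% interval from -0.45 to 0.43, and LMP1 minus naive control was 0.38 with a 95% interval from -0.07 to 0.82 (adjusted p = 0.177). YFP control cells, which had neither LMP1 nor anti-CD40, were 13.2-fold above naive control cells (log2 change 3.72, adjusted p = 1.26e-05). Culture, TAT-Cre, the sort, the mouse cross, sex and array series all differ between those 2 groups and cannot be told apart. The LMP1 comparison and this one share the YFP control arrays, and the CD40 comparison and this one share the naive control arrays, so these changes are not independent of each other.

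The promoter of S1pr3 is shown because its LMP1 change minus its CD40 change was the most negative of all genes. In LMP1 against CD40-activated cells directly, its decrease ranked 28. Sequences are from RefSeq on build GRCm38.p6 and run from 250 bases before to 50 bases after the gene start, and 4 of the 5 genes had one. S1pr1 had no entry. Capitals mark matches, on either strand, to 8 short motifs: CACCC bound by KLF factors, GGGCGG or GC box, GGGNNTTTC as a core of NF-kB sites, TGANTCA bound by AP-1, TGACGTCA or CRE, TGTTTAC bound by FOXO factors, the octamer ATGCAAAT, and TATAAA. Of 32851 mouse promoters of the same length, 57.5% held the KLF letters, 35.7% the GC box, 4.36% the NF-kB core, 7.81% the AP-1 motif, 1.79% the CRE, 3.65% the FOXO motif, 1.74% the octamer and 13.6% the TATA letters. The S1pr3 promoter lies at chr13:51408368-51408667 on the plus strand.
S1pr3: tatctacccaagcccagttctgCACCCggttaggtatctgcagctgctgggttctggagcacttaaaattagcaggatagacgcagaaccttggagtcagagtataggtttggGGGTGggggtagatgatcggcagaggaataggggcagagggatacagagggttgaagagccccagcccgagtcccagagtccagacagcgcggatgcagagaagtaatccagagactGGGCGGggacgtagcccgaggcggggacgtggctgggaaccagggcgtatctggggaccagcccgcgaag
It held the KLF letters at positions -228 and -137 relative to the gene start, the second on the opposite strand, and a GC box at -20, and its GC content was 59% against a median of 52.7% over all promoters. None of the other motif letters was in this window.

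S1pr4, expressed mainly in blood cells, was lower in both stimulated groups. It read 5.64 and 5.83 on the LMP1 arrays, against 7.27 and 6.46 on the YFP control arrays. It read 6.66 and 6.15 on the CD40-activated arrays, against 7.53 and 7.72 on the naive control arrays. The groups did not overlap in either comparison, but the 2 YFP control arrays were 0.81 apart.

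S1pr4 fell by 1.13 ± 0.27 in LMP1 cells (adjusted p = 0.0131), a 2.19-fold decrease. In CD40-activated cells it fell by 1.22 ± 0.27 (adjusted p = 0.0127), a 2.33-fold decrease. The difference between the changes was 0.09 with a 95% interval from -0.77 to 0.95, so these arrays leave room for a difference of up to 0.95. The LMP1 call was lost without LMP1 replicate 1 (adjusted p = 0.103) or replicate 2 (adjusted p = 0.0550), and the CD40 call without CD40-activated replicate 2 (adjusted p = 0.131) or naive control replicate 2 (adjusted p = 0.0785). In the rising order LMP1 5.74 ± 0.13, CD40-activated 6.41 ± 0.36, YFP control 6.87 ± 0.57 and naive control 7.63 ± 0.13 (SD, n = 2 each), no neighbours differed at the threshold (adjusted p = 0.148, 0.313 and 0.0806). The ends of that order did, LMP1 cells being 3.71-fold below naive control cells (adjusted p = 4.51e-04). The promoter of S1pr4, at chr10:81500088-81500387 on the minus strand, was 41% GC and held 1 of the 8 motifs, the KLF letters at -107.

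Gpr183, the oxysterol receptor, was lower in LMP1 cells and not in CD40-activated cells at the threshold used. It read 9.38 and 9.24 on the LMP1 arrays, against 10.03 and 10.79 on the YFP control arrays. It read 9.94 and 9.91 on the CD40-activated arrays, against 9.86 and 9.98 on the naive control arrays. The LMP1 arrays were the lowest of the 8, and the CD40-activated and naive control arrays overlapped.

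Gpr183 fell by 1.10 ± 0.23 in LMP1 cells relative to YFP control (2.14-fold, adjusted p = 0.00690). Its change in CD40-activated cells was 0.01 with a 95% interval from -0.52 to 0.53 (adjusted p = 0.990). The difference between the changes was -1.10 ± 0.33 and missed the threshold (adjusted p = 0.0723), so the 2 responses are not shown to differ. The size of the LMP1 change rested on which YFP control array was used, being -1.48 without YFP control replicate 1 and -0.72 without replicate 2. The call was lost without LMP1 replicate 2 (adjusted p = 0.0632), and without YFP control replicate 1 the difference between the changes was called (-1.48, adjusted p = 0.00320). LMP1 cells also had a lower mean than CD40-activated cells (log2 change -0.62, adjusted p = 0.121), a value that passed when only those groups were modelled (adjusted p = 0.00589). The mean level was 9.31 ± 0.10 in LMP1, 10.41 ± 0.54 in YFP control, 9.93 ± 0.02 in CD40-activated and 9.92 ± 0.08 in naive control cells (SD, n = 2 each). In the order YFP control, CD40-activated, naive control and LMP1, no neighbours differed at the threshold (adjusted p = 0.213, 0.990 and 0.0719).

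S1pr2, the receptor that confines germinal centre B cells, was not called in any comparison. It read 6.91 and 6.89 on the LMP1 arrays, against 6.70 and 6.97 on the YFP control arrays. It read 6.96 and 6.95 on the CD40-activated arrays, against 7.24 and 6.98 on the naive control arrays. All 8 values lay between 6.70 and 7.24. The mean level was 6.90 in LMP1, 6.83 in YFP control, 6.96 in CD40-activated and 7.11 in naive control cells, and no groups next to each other in level differed at the threshold. The change was 0.07 in LMP1 cells (95% interval -0.32 to 0.45, adjusted p = 0.836) and -0.15 in CD40-activated cells (95% interval -0.54 to 0.23, adjusted p = 0.600), so these arrays leave room for changes of up to 0.54.

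The promoters of S1pr2 and Gpr183 are shown together because they are the most and the least GC-rich of the 4, at 62% and 35.3%. S1pr2 is at chr9:20976744-20977043 and Gpr183 at chr14:121965144-121965443, both on the minus strand.
S1pr2: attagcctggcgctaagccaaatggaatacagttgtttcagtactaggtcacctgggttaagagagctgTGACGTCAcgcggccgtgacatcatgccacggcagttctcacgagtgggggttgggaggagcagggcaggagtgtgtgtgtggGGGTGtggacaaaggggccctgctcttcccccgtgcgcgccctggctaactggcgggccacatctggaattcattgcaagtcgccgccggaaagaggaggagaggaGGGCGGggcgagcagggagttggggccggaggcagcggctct
Gpr183: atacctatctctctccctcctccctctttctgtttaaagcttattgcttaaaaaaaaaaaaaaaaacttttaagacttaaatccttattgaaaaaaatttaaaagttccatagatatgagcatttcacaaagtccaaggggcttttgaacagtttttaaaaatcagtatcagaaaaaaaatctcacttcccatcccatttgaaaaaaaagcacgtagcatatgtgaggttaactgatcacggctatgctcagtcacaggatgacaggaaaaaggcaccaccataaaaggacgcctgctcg
The S1pr2 window held a CRE at -181, the KLF letters at -98 and a GC box at 9. The Gpr183 window held none of the 8 motifs. A match of letters is a description and does not show a bound site.

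S1pr5, which natural killer cells use to leave tissue, read 5.89 and 5.99 on the LMP1 arrays, against 6.32 and 6.04 on the YFP control arrays. It read 5.91 and 5.85 on the CD40-activated arrays, against 6.62 and 6.97 on the naive control arrays. It was lower in CD40-activated cells (log2 change -0.92 ± 0.18, adjusted p = 0.00768) and not called in LMP1 cells (-0.24, adjusted p = 0.409). The CD40 call was lost without either CD40-activated array (highest adjusted p = 0.0725). Against the same naive control arrays, S1pr5 was also lower in LMP1 cells (log2 change -0.855, adjusted p = 0.00537). It was lower in YFP control cells too (-0.615, adjusted p = 0.0447), a call lost with array medians subtracted. CD40-activated minus YFP control was -0.30 and not called (adjusted p = 0.335). The naive control arrays were the highest of the 8, and they also carried the highest level of natural killer cell markers, described further on.

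Counted over the 5 genes, LMP1 cells had 4 lower and 0 higher than YFP control, with a median change of -1.13 beside -0.075 over all genes, where 8.31% of genes were called lower and 14.9% higher. CD40-activated cells had 2 lower and 1 higher than naive control, with a median of -0.15 beside -0.05, where 6.65% of genes were called lower and 11% higher. LMP1 against CD40-activated cells gave 2 lower (S1pr1 and S1pr3) and 0 higher, beside 5.17% lower and 9.66% higher over all genes. The difference between the changes was called for the same 2 genes, both negative, beside 4.12% negative and 4.2% positive over all genes. Over the alternatives the number called lower in LMP1 cells relative to YFP control was between 2 and 4, and in CD40-activated cells relative to naive control between 1 and 2.

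Among the comparisons across sets, YFP control against naive control cells called 1 of the 5 higher (S1pr3) and 0 lower, beside 10.9% higher and 7.59% lower over all genes. CD40-activated against YFP control cells called 1 lower (S1pr1) and 0 higher, beside 6.06% lower and 7.75% higher. LMP1 against naive control cells called 2 lower (S1pr1 and S1pr4) and 0 higher, beside 14% lower and 18.9% higher. Mouse cross, sex and array series differ in each of these.

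**Figure D2:**
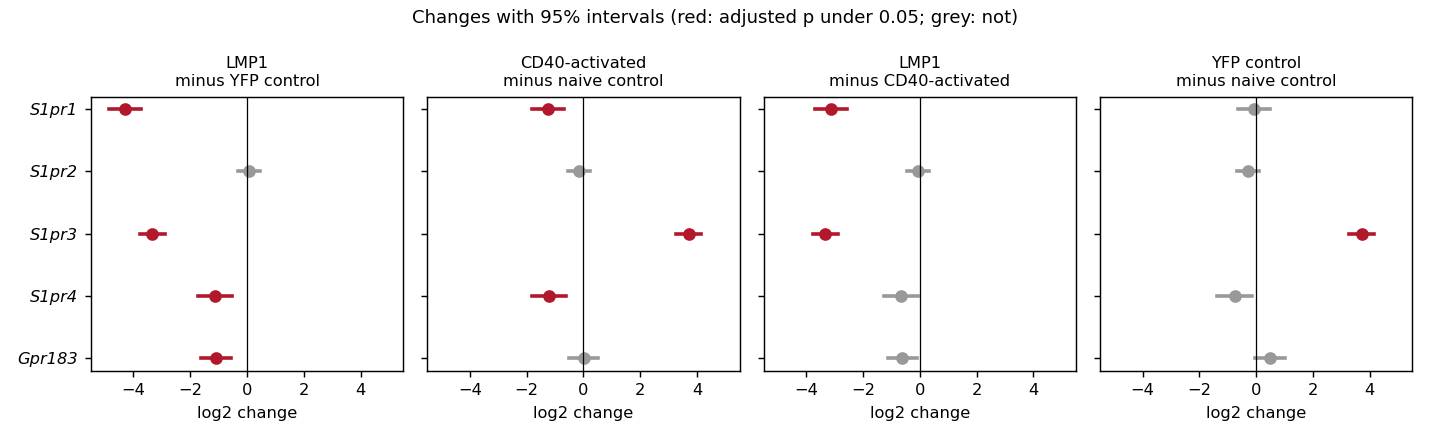
Log2 change (x axis) of each receptor gene with its 95% interval, in panels for LMP1 minus YFP control, CD40-activated minus naive control, LMP1 minus CD40-activated and YFP control minus naive control, with called genes in red and others in grey. In the first 2 panels S1pr1 lies at -4.29 and -1.26 and S1pr3 at -3.35 and 3.71, while the intervals of S1pr2 include 0 in all panels.

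The genes whose profile over the 8 arrays was most like each receptor were sought among 5527 genes whose group means spanned at least 1 log2 unit. The arrays fall into groups, so that a high Pearson correlation mostly reflects 4 group means and is given as a description. S1pr1 was closest to H2-Ob (r = 0.998), Itsn2 (0.997), Lpp (0.996), Sorl1 (0.994) and Tspan32 (0.992), and 91 genes reached 0.95. H2-Ob, the beta chain of the class II chaperone H2-O, averaged 7.47 in LMP1, 10.70 in YFP control, 9.86 in CD40-activated and 10.73 in naive control cells. S1pr3 was closest to Lpxn (0.996), Cybb (0.981), Hpgds (0.979), Lztfl1 (0.977) and Olfr128 (0.975), with 13 genes at 0.95 or more. Lpxn, the focal adhesion protein leupaxin, averaged 9.09 in LMP1, 10.36 in YFP control, 10.31 in CD40-activated and 8.96 in naive control cells, the same 2 high and 2 low groups as S1pr3.

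S1pr4 was closest to Slc43a2 and Pear1 (both 0.985), Gse1 (0.970), Tbc1d10c (0.969) and Fam102a (0.967), with 24 genes at 0.95 or more. Gpr183 was closest to Mir350 (0.979), Atad2b and Rgs13 (both 0.978), Gm8369 (0.974) and Epcam (0.971), with 11 genes at 0.95 or more. No gene reached 0.95 with S1pr2, whose range over the arrays was small. Its closest genes were Prf1 (0.914), Mir511 (0.897), Ccl6 (0.886), Gata1 (0.885) and Cyp4b1-ps2 (0.882). Prf1 is a killer cell effector and Gata1 an erythroid factor, and both had their highest mean in naive control cells, at 7.47 and 5.91.

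Enzymes and transporters set the S1P around a cell. Of 9 measured genes of S1P making, breakdown and export, 1 rose and 1 fell in LMP1 cells, beside 14.9% and 8.31% of all genes (median change -0.16 beside -0.075). In CD40-activated cells 1 rose and 2 fell, beside 11% and 6.65% of all genes (median 0.12 beside -0.05). Sgpl1, the lyase that breaks S1P down irreversibly, read 9.71 and 9.71 on the CD40-activated arrays, against 7.84 and 7.82 on the naive control arrays. It read 7.26 and 7.37 on the LMP1 arrays, against 8.10 and 7.63 on the YFP control arrays. Both CD40-activated arrays were above all others.

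Sgpl1 rose by 1.88 ± 0.19 in CD40-activated cells (adjusted p = 1.85e-04) and changed by -0.55 ± 0.19 in LMP1 cells, short of the threshold (adjusted p = 0.0609). The difference between the changes was -2.43 ± 0.26 (adjusted p = 6.54e-04). Spns2, an S1P exporter, fell in LMP1 cells (log2 change -1.45 ± 0.30, adjusted p = 0.00590) and in CD40-activated cells (log2 change -1.98 ± 0.30, adjusted p = 0.00168). The difference between these was not called (adjusted p = 0.512). The LMP1 call of Spns2 was lost without LMP1 replicate 1 (adjusted p = 0.0567), and its change was -0.90 without YFP control replicate 1. Plpp2, a membrane phosphatase that acts on S1P and related lipids, rose by 1.84 ± 0.25 in LMP1 cells (adjusted p = 5.96e-04) and had a change of 0.15 in CD40-activated cells (adjusted p = 0.739), and the difference was called (1.69, adjusted p = 0.0182). The Plpp2 difference was not called without either LMP1 array, either CD40-activated array or naive control replicate 1 (highest adjusted p = 0.0950).

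The sphingosine kinases that make S1P were not called. Sphk1 changed by 0.22 in LMP1 and 0.12 in CD40-activated cells, and Sphk2 by 0.34 and 0.26 in the same order. Mfsd2b, the S1P exporter of red cells and platelets, was lower in CD40-activated than naive control cells (log2 change -1.27, adjusted p = 0.0157), where markers of those cells were also lower. That call was lost without CD40-activated replicate 2 or naive control replicate 1 (highest adjusted p = 0.15), and the change was -0.82 without the second of these. Without YFP control replicate 2 the number of these genes lower in LMP1 cells was 3 in place of 1, and without naive control replicate 1 the number lower in CD40-activated cells was 1 in place of 2. Plpp1 was not analysed here.

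For the oxysterol side, 1 of 6 genes fell in LMP1 cells (median -0.08), beside 8.31% of all genes. In CD40-activated cells 1 of 6 fell (median -0.39), beside 6.65% of all genes, the same gene, Cyp27a1. This mitochondrial sterol 27-hydroxylase read 4.65 and 5.22 on the LMP1 arrays, against 7.19 and 6.56 on the YFP control arrays. It read 5.26 and 5.39 on the CD40-activated arrays, against 7.41 and 6.85 on the naive control arrays. It was low on all arrays of both stimulated groups. The log2 change was -1.94 ± 0.28 in LMP1 cells (adjusted p = 7.72e-04) and -1.80 ± 0.28 in CD40-activated cells (adjusted p = 0.00190).

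The genes that make and remove the GPR183 ligand itself were not called in either comparison. Ch25h, the 25-hydroxylase, read between 4.29 and 4.88 on all 8 arrays, below the median of every array (5.52 to 5.68). It changed by -0.04 in LMP1 cells (adjusted p = 0.903) and by -0.27 in CD40-activated cells (adjusted p = 0.407). Cyp7b1, the 7α-hydroxylase, changed by -0.33 (adjusted p = 0.273) and -0.25 (adjusted p = 0.431) in that order. Hsd3b7, which degrades the ligand, changed by 0.09 and -0.44 (adjusted p = 0.122 for CD40-activated cells). Without YFP control replicate 2, 2 of the 6 genes were lower in CD40-activated cells.

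Genes known to act on S1P receptor transcription or on the receptor at the cell surface were mostly called lower with CD40 and were mixed with LMP1. In LMP1 cells 5 of 12 measured fell and 2 rose, beside 8.31% and 14.9% of all genes (median -0.56). In CD40-activated cells 9 of 12 fell and 0 rose, beside 6.65% and 11% of all genes (median -1.18). T cells and natural killer cells carry several of these genes, Klf2, Cd69 and Tbx21 among them, and 7 of 7 T cell and 5 of 7 natural killer markers were lower in the same CD40 comparison, a part that was not tested. Klf2, a transcription factor that activates S1pr1 in lymphocytes, read 6.62 and 6.59 on the LMP1 arrays, against 9.29 and 7.76 on the YFP control arrays. It read 7.48 and 7.48 on the CD40-activated arrays, against 10.62 and 10.39 on the naive control arrays. Klf2 was low in both stimulated groups, and the YFP control arrays were 1.53 apart and below the naive control arrays.

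Klf2 fell by 1.92 ± 0.38 in LMP1 cells (adjusted p = 0.00490) and in CD40-activated cells (log2 change -3.02 ± 0.38, adjusted p = 6.54e-04). Without YFP control replicate 1 the LMP1 change was -1.16, still called. Klf2 was also lower in YFP control than in naive control cells (log2 change -1.98, adjusted p = 0.00657), a pair in which S1pr1 was not called, and that change was -1.22 without YFP control replicate 2. Foxo1, which acts upstream of Klf2 in lymphocytes, fell by 0.82 in LMP1 cells (adjusted p = 0.0127, lost without either LMP1 array, at most 0.106) and changed by -0.27 in CD40-activated cells (adjusted p = 0.406). Arrb1, the arrestin that desensitises receptors of this class, fell in both (log2 change -1.5, adjusted p = 8.56e-04 in LMP1 cells, and -1.41, adjusted p = 0.00199 in CD40-activated cells). Bach2 and Bcl6, repressors of B cell differentiation, also fell in both. Bach2 changed by -1.17 in LMP1 cells (adjusted p = 0.00204) and -1.10 in CD40-activated cells (adjusted p = 0.00444), and Bcl6 by -2.11 (adjusted p = 5.47e-05) and -0.96 (adjusted p = 0.00613) in the same order. Without CD40-activated replicate 1 the CD40 calls of Bach2, Bcl6 and Cd69 were lost (adjusted p = 0.0553, 0.0672 and 0.0525).

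Cd69 and Tbx21 had opposite calls in the 2 comparisons. Cd69, whose protein binds S1PR1 and takes it off the surface, read 9.76 and 9.68 on the LMP1 arrays, against 8.26 and 8.90 on the YFP control arrays. It read 8.53 and 8.81 on the CD40-activated arrays, against 9.99 and 9.88 on the naive control arrays. The naive control arrays, from uncultured cells, were the highest and the LMP1 arrays came next. It rose by 1.14 ± 0.22 in LMP1 cells (adjusted p = 0.00433), fell in CD40-activated cells (log2 change -1.26 ± 0.22, adjusted p = 0.00366), and the difference was 2.40 ± 0.31 (adjusted p = 0.00152). Cd69 was also lower in YFP control than in naive control cells (log2 change -1.355, adjusted p = 0.00289). CD40-activated minus YFP control was 0.09 and not called (adjusted p = 0.841).

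Tbx21, or T-bet, which activates S1pr5 in natural killer cells, read 10.11 and 10.20 on the LMP1 arrays, against 6.59 and 6.90 on the YFP control arrays. It read 5.80 and 5.60 on the CD40-activated arrays, against 6.86 and 7.16 on the naive control arrays. It rose by 3.41 in LMP1 cells (adjusted p = 7.24e-06) and fell by 1.31 in CD40-activated cells (adjusted p = 0.00127), a difference of 4.72 (adjusted p = 2.17e-05). S1pr5 was not called in the LMP1 comparison. Grk2 was not analysed here.

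**Figure D3:**
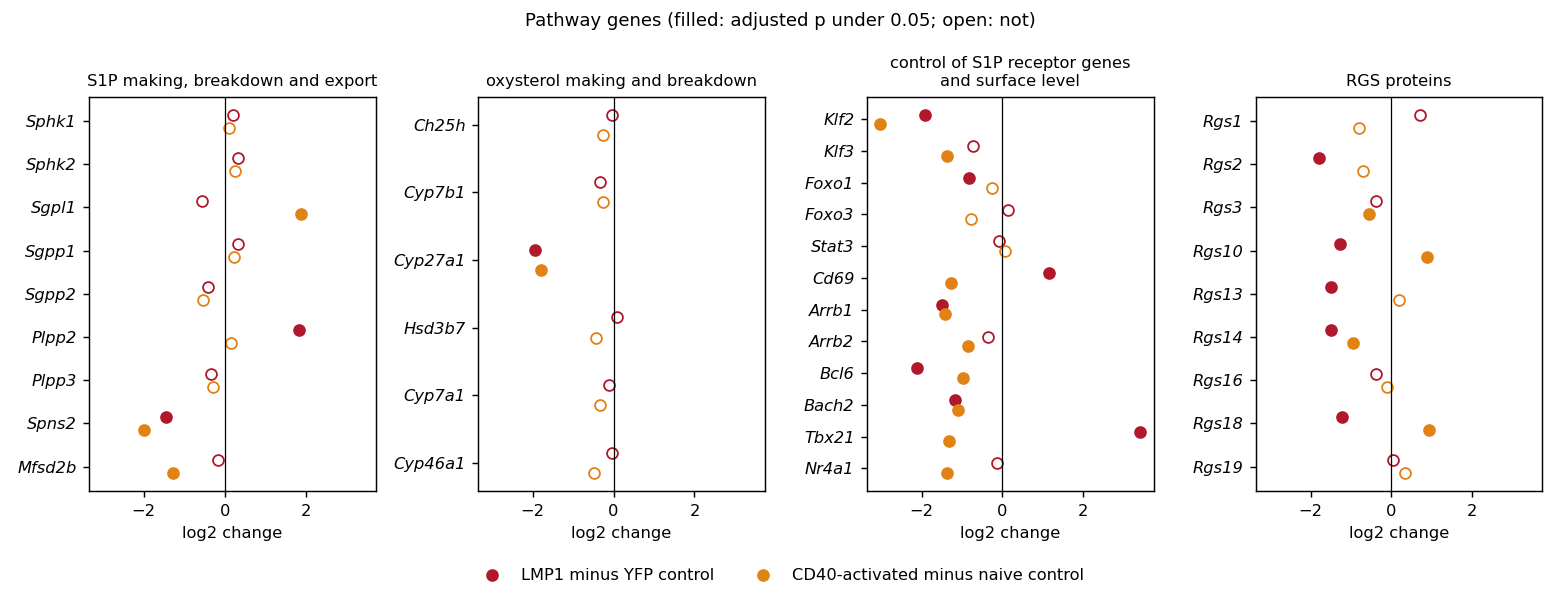
Log2 change (x axis) of genes of S1P and oxysterol handling, of control of the receptors and of RGS proteins, for LMP1 minus YFP control and CD40-activated minus naive control, with filled points for called genes and open points for others. Sgpl1, Cd69 and Tbx21 stand apart between the comparisons, and Klf2, Spns2 and Cyp27a1 are lower in both.

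RGS proteins, which shorten signalling from the G proteins that S1P and chemokine receptors use, were mostly lower or not called in LMP1 cells. Of 9 genes, 5 fell and 0 rose there, beside 8.31% and 14.9% of all genes (median -1.21), namely Rgs2, Rgs10, Rgs13, Rgs14 and Rgs18. The other 4, Rgs1, Rgs3, Rgs16 and Rgs19, did not pass. The Rgs2 call was lost without LMP1 replicate 2 and the Rgs13 call without either LMP1 array (highest adjusted p = 0.0681 and 0.0732), and without YFP control replicate 2 their changes were -1.14 and -0.81. In CD40-activated cells 2 rose and 2 fell, beside 11% and 6.65% of all genes (median -0.11). Rgs10 read 6.05 and 6.40 on the LMP1 arrays, against 7.36 and 7.63 on the YFP control arrays. It read 8.07 and 8.09 on the CD40-activated arrays, against 7.09 and 7.31 on the naive control arrays. The LMP1 arrays were the lowest and the CD40-activated arrays the highest of the 8.

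The difference between the changes was called for Rgs10 (-2.15, adjusted p = 0.00120) and Rgs18 (-2.14, adjusted p = 0.00248). The increases of Rgs10 (0.88, adjusted p = 0.0105) and Rgs18 (0.93, adjusted p = 0.0153) in CD40-activated cells were no longer called under quantile normalization within each set of 4 arrays, and no RGS gene was called there without naive control replicate 1. Rgs14, an RGS protein enriched in lymphocytes, was lower in LMP1 than in YFP control cells (log2 change -1.49, adjusted p = 5.40e-04). It was also lower in CD40-activated than in naive control cells (log2 change -0.95, adjusted p = 0.00956). That CD40 call was lost without CD40-activated replicate 1 or naive control replicate 1 (highest adjusted p = 0.0956). YFP control minus naive control was -0.98 for Rgs14 (adjusted p = 0.00885), and CD40-activated minus YFP control was 0.025 (adjusted p = 0.958). Rgs1, the member best known for limiting B cell chemotaxis, had a change of 0.70 in LMP1 cells that missed the threshold (adjusted p = 0.136).

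Of the G proteins and exchange factors themselves, 3 of 16 fell and 2 rose in LMP1 cells (median -0.03), beside 8.31% and 14.9% of all genes. In CD40-activated cells 1 fell and 2 rose (median 0.19), beside 6.65% and 11% of all genes. Plcb2, a phospholipase that G protein subunits activate, fell in LMP1 cells (log2 change -1.94, adjusted p = 1.93e-04).

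Chemokine receptors and integrins that act with the S1P receptors in placing B cells were mixed as well. Of 8 measured, 3 fell and 1 rose in LMP1 cells (median -0.06), beside 8.31% and 14.9% of all genes. In CD40-activated cells 4 fell and 1 rose (median -0.45), beside 6.65% and 11% of all genes. Cxcr4, the receptor for CXCL12, fell by 2.93 in LMP1 cells (adjusted p = 3.51e-05) and in CD40-activated cells (log2 change -2.48, adjusted p = 1.48e-04). Itgb7, the β7 integrin chain, fell by 2.66 in LMP1 cells (adjusted p = 4.21e-04) and also in CD40-activated cells (log2 change -2.77, adjusted p = 5.96e-04).

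Ccr6, the receptor for CCL20, had the same signs of change as S1pr3. It read 9.21 and 9.22 on the LMP1 arrays, against 10.24 and 10.05 on the YFP control arrays. It read 10.69 and 10.71 on the CD40-activated arrays, against 8.32 and 8.02 on the naive control arrays. It fell by 0.93 in LMP1 cells (adjusted p = 0.00328), rose by 2.53 in CD40-activated cells (adjusted p = 3.29e-05), and the difference was -3.46 (adjusted p = 6.27e-05). Ccr6 differed between the controls themselves, with a log2 change of 1.975 for YFP control minus naive control (adjusted p = 1.15e-04). For CD40-activated minus YFP control the change was 0.555, which was not called (adjusted p = 0.0606). The part of the control difference in the Ccr6 result was not tested. Cxcr5, the follicle-homing receptor, was not called in either comparison (0.50, adjusted p = 0.0883 in LMP1 cells, and -0.07, adjusted p = 0.856 in CD40-activated cells). Ccr7, which draws B cells to the T cell zone, was not called in LMP1 cells relative to YFP control (0.20, adjusted p = 0.521). It was lower in CD40-activated than in naive control cells (log2 change -0.74, adjusted p = 0.0282), a call lost without any 1 of the LMP1, CD40-activated or naive control arrays (highest adjusted p = 0.229). Set directly against CD40-activated cells, LMP1 cells were 1.47 higher (adjusted p = 9.38e-04), with the cross, sex and array series differing too.

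Cells other than B cells carry several of these receptors, and their markers moved with some comparisons. Over all genes, 8.31% were called lower and 14.9% higher in LMP1 against YFP control cells. The shares for CD40-activated against naive control cells were 6.65% and 11%. In CD40-activated cells 7 of 7 measured T cell markers and 5 of 7 natural killer cell markers were lower than in naive control cells. The mean level of the T cell list was between 5.57 and 5.91 on the CD40-activated arrays, against 8.26 to 8.50 on the naive control arrays. The natural killer list lay between 4.72 and 4.81 on the CD40-activated arrays, against 6.61 to 7.05 on the naive control arrays. The red cell and platelet list had 2 of 4 measured markers lower (4.83 to 4.85 on the CD40-activated arrays, against 6.75 to 7.40 on the naive control arrays). T cells carry S1pr1 and S1pr4 and natural killer cells S1pr5, and the part of these markers in the lower S1pr1, S1pr4 and S1pr5 of CD40-activated cells was not tested.

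Against YFP control cells, 0 of 7 T cell and 0 of 7 natural killer markers were called in CD40-activated cells. Over all genes 6.06% were called lower and 7.75% higher there. Mouse cross, sex, TAT-Cre, sort and array series differ in that pair too. In YFP control cells the T cell list was between 5.43 and 5.82 and the natural killer list between 4.74 and 5.09. In LMP1 cells these lists were between 5.36 and 5.49 and between 4.56 and 4.64, with 2 of 7 T cell and 0 of 7 natural killer markers lower than in YFP control.

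S1pr3 is carried by marginal zone B cells and by endothelial cells. Of 8 marginal zone markers, 2 fell and 0 rose in LMP1 cells (Dtx1 and Myof), and 2 rose and 1 fell in CD40-activated cells (Myof and Fcrl5 up, Dtx1 down). The CD40 call of Dtx1 was lost without any 1 array of the groups compared (highest adjusted p = 0.138). Without YFP control replicate 2 these counts became 1 higher in LMP1 cells, and 4 higher and 2 lower in CD40-activated cells. The list's mean level was between 7.72 and 7.77 on the LMP1 arrays, against 8.54 to 8.57 on the YFP control arrays. It was between 8.83 and 8.88 on the CD40-activated arrays, against 8.23 to 8.34 on the naive control arrays.

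Myof, or myoferlin, fell by 2.47 in LMP1 cells (adjusted p = 1.90e-05) and rose in CD40-activated cells (log2 change 2.33, adjusted p = 4.16e-05). These signs were those of S1pr3, but the 2 genes differed elsewhere. YFP control minus naive control was 0.505 for Myof (not called) and 3.72 for S1pr3. CD40-activated minus YFP control was 1.82 for Myof (called) and -0.01 for S1pr3. Fcrl5 rose in CD40-activated cells (log2 change 3.87, adjusted p = 2.31e-04), and its change in LMP1 cells was -1.07 (adjusted p = 0.0874). For Fcrl5, YFP control minus naive control was 2.58 (called, adjusted p = 0.00235). CD40-activated minus YFP control was 1.285 for it (not called, adjusted p = 0.0635). The part of Myof and Fcrl5 in the S1pr3 result was not tested. Of 10 endothelial markers, 0 were called in CD40-activated cells and 1 in LMP1 cells (Eng, higher by 1.80, adjusted p = 4.05e-04), and the list lay between 4.82 and 5.14 on all 8 arrays.

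Myeloid and dendritic cell markers moved as well. Of 7 measured monocyte and macrophage markers, 2 fell in LMP1 cells (Adgre1 by 2.02 and Lyz2, log2 change -1.91), and in CD40-activated cells 2 fell (Lyz2 and Cd14) and 1 rose (Cd68). The list was between 5.07 and 5.09 on the LMP1 arrays, against 5.53 to 5.99 on the YFP control arrays, and between 5.33 and 5.42 on the CD40-activated arrays, against 5.54 to 5.73 on the naive control arrays. Of 6 measured dendritic cell markers, 2 rose in LMP1 cells (Flt3, log2 change 2.995, and Zbtb46, log2 change 1.79), and in CD40-activated cells Flt3 rose and Itgax fell. The CD40 calls of Cd14 and Flt3 were each lost without either CD40-activated array, and without further arrays (highest adjusted p = 0.266 and 0.148). The list was between 6.25 and 6.30 on the LMP1 arrays, against 5.52 to 5.74 on the YFP control arrays, and between 5.61 and 5.88 on the CD40-activated arrays, against 6.05 to 6.13 on the naive control arrays. Neutrophil markers had 0 of 6 called in LMP1 cells and 1 of 6 lower in CD40-activated cells. Their part in the receptor results was not tested.

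**Figure D4:**
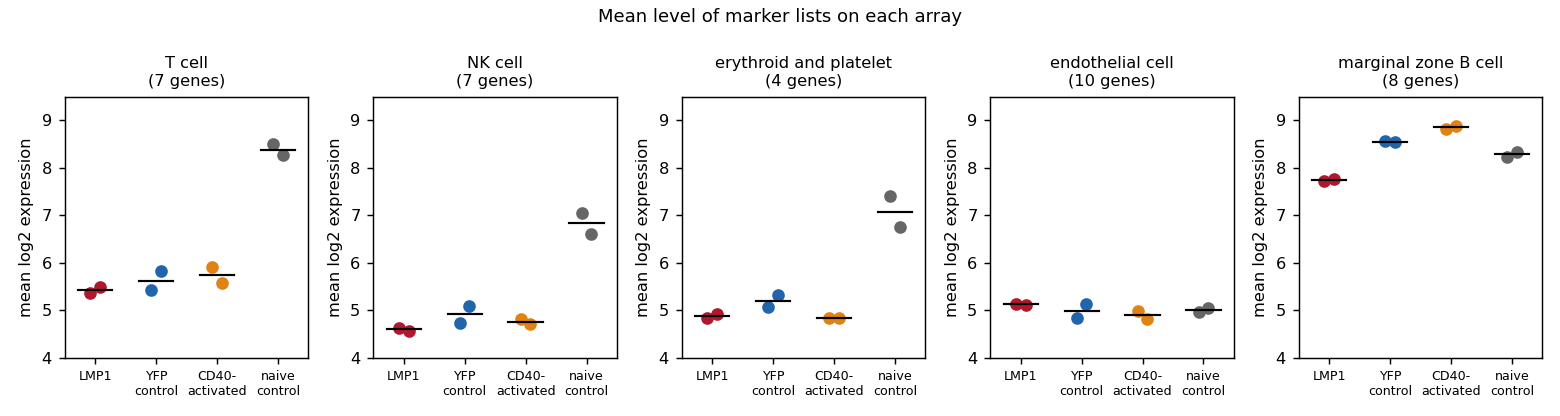
Mean log2 level (y axis) of 5 lists of cell type markers, with a point per array and a bar at the mean of each group. The T cell, natural killer cell and red cell lists are highest on the naive control arrays (T cell list 8.26 to 8.50, at most 5.91 elsewhere), and the marginal zone list is lowest on the LMP1 arrays.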

How the data were processed

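Each of the 8 arrays is 1 sample. The deposited series table holds log2 expression values per probe set with 2 decimals, made by the authors with RMA and oligo, per the submitters' processing notes (versions and genome build not given in the sources used here). Of 25349 probe sets, 22225 had 1 gene symbol, 616 several and 2508 none. The brightest probe set stood for each of 640 genes with several, leaving 21515 genes.

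One limma 3.58.1 model (R 4.3.3) with 4 group means gave each contrast, by lmFit and eBayes, with Benjamini-Hochberg adjustment over all genes. No array was left out and no dim gene was filtered. The model was tested on simulated data. The 5 receptor genes and all gene and marker lists were chosen with earlier results of these data known, and the motifs after the promoter sequences were seen.

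The rule for named genes was all 5 receptors and S1pr5, any gene of the lists on S1P handling, oxysterols, receptor control, RGS proteins and positioning, up to 4 largest and 2 smallest changes of other lists, and the 5 genes most correlated with each receptor.

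Alternatives were another variance model, fewer groups, a filter on genes under the 25th percentile, 2 normalizations, mean probe sets, single probe sets, a replicate block and leaving out each array. List counts without YFP control replicate 2 and without naive control replicate 1, and leave-one-out values of listed genes were added after seeing the data.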

Additional observations from a re-analysis of the deposited data

Results flagged for a closer look

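Both genes here were noted because their changes under LMP1 and under CD40 differed by a test of the difference itself. For S1pr1 the LMP1 change minus the CD40 change was -3.04 on the log2 scale (adjusted p = 9.02e-04 by limma), with both changes negative. For S1pr3 it was -7.06 (adjusted p = 6.83e-06), with changes of opposite sign. The controls of the 2 pairs differ themselves, YFP control cells having had TAT-Cre, 2 days of culture and a sort and naive control cells none of these. For S1pr3, YFP control minus naive control was 3.72 and CD40-activated minus YFP control was -0.01. For S1pr1 these were -0.08 and -1.18. Culture, mouse cross, sex, sorting and array series also differ between the pairs, and their part in the differences cannot be told apart from the stimulus.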

How the results depend on the processing

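Over 16 alternatives for each change and 15 for the difference between changes, 515 of the values for the 5 genes kept their direction and call, 14 were newly called, 10 lost a call and 16 turned sign; the cause was not tested. Among the turned values, quantile normalization within each set gave S1pr2 -0.18 in LMP1 against YFP control and -0.10 in CD40-activated against YFP control, and Gpr183 -0.20 in CD40-activated against naive control. Subtracting array medians gave S1pr3 0.05 in CD40-activated against YFP control, and moved the median of all genes by 0.12 in LMP1 against naive control. Leaving out 1 array gave these ranges. In LMP1 against YFP control, S1pr2 ran from -0.07 to 0.20, S1pr4 from -1.53 to -0.73 and Gpr183 from -1.48 to -0.72. In CD40-activated against naive control, S1pr1 ran from -1.36 to -1.15, S1pr4 from -1.48 to -0.97 and Gpr183 from -0.055 to 0.065. In LMP1 against CD40-activated, S1pr4 ran from -0.93 to -0.42 and Gpr183 from -0.69 to -0.55, and with only those groups modelled they were called at -0.67 (adjusted p = 0.0266) and -0.62 (adjusted p = 0.00589). In the difference between changes, S1pr4 ran from -0.32 to 0.49 and Gpr183 from -1.48 to -0.73. In YFP control against naive control S1pr1 ran from -0.50 to 0.34, and in CD40-activated against YFP control S1pr2 ran from -0.015 to 0.26 and S1pr3 from -0.17 to 0.14. Genes called, over all genes, ran from 2647 to 7090 (LMP1 against YFP control, 4995 with all arrays), 1576 to 5631 (CD40-activated against naive control, 3803), 1275 to 4735 (LMP1 against CD40-activated, 3191), 707 to 4199 (difference, 1790), 843 to 5471 (CD40-activated against YFP control, 2970), 2695 to 5955 (YFP control against naive control, 3986) and 4239 to 8766 (LMP1 against naive control, 7080). With only the groups compared they were 6360 for LMP1 against CD40-activated, 1537 for YFP control against naive control and 1667 for CD40-activated against YFP control. The share of calls that were higher was 64.2% in LMP1 against YFP control and 53.4% under within-set quantiles. It was 62.4% in CD40-activated against naive control and 73.3% with array medians subtracted, 56.1% in CD40-activated against YFP control and 42.2% under within-set quantiles, and 57.5% in LMP1 against naive control and 68.8% with array medians subtracted. Same-numbered arrays showed little shared deviation, with correlations of same-numbered deviations from -0.10 to 0.07. These values cannot show whether the samples were prepared in pairs. The replicate block gave 4923 and 3659 called genes for the 2 main comparisons and changed no call of the 5 genes. No listed gene that was called changed sign under the 2 scalings tried.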

Other observations

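Ceramide and sphingosine supply genes, which feed S1P synthesis, had 3 of 13 higher and 0 lower in LMP1 against YFP control cells. Over all genes 14.9% were higher and 8.31% lower there. In CD40-activated against naive control cells 3 were higher and 0 lower, beside 11% and 6.65% of all genes. Without YFP control replicate 2 the LMP1 counts were 1 higher and 1 lower. Cers6, a ceramide synthase, rose by 1.65 in CD40-activated cells (adjusted p = 2.96e-04 by limma). YFP control minus naive control was 1.245 for Cers6 (adjusted p = 0.00158), and CD40-activated minus YFP control was 0.405 (adjusted p = 0.177). Degs1, the dihydroceramide desaturase, rose by 0.82 in CD40-activated cells (adjusted p = 0.0176) and also in LMP1 cells (log2 change 0.77, adjusted p = 0.0179). The Degs1 call in LMP1 cells was lost under quantile normalization within each set and without either LMP1 array or YFP control replicate 2 (highest adjusted p = 0.111), and in CD40-activated cells without any 1 array of the groups compared (highest adjusted p = 0.158).

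Among 24 measured receptors for other lipids (S1pr5 included), 6 fell and 1 rose in LMP1 cells, beside 8.31% and 14.9% of all genes. In CD40-activated cells 2 fell and 1 rose, beside 6.65% and 11% of all genes. The CD40 count of lower genes was 5 without YFP control replicate 2 and 4 without naive control replicate 1. Cnr2, the cannabinoid receptor of B cells, read 7.34 and 7.40 on the LMP1 arrays, against 9.67 and 8.83 on the YFP control arrays. It read 9.98 and 9.99 on the CD40-activated arrays, against 9.80 and 9.59 on the naive control arrays. It fell by 1.88 in LMP1 cells (adjusted p = 4.87e-04), and the difference from its CD40 change was -2.17 (adjusted p = 0.00514). Gpr132, a receptor for oxidised fatty acids, rose in LMP1 cells (log2 change 1.89, adjusted p = 9.16e-05), and P2ry10b fell there (log2 change -2.63, adjusted p = 2.61e-04). Lpar2, a lysophosphatidic acid receptor, rose by 1.39 in CD40-activated cells (adjusted p = 8.55e-04) and changed by -0.43 in LMP1 cells (adjusted p = 0.131), with a difference of -1.82 (adjusted p = 0.00255).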
